A study of Mus musculus with 10 samples.

Results

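The proteasome genes of mouse CD4+ T cells were followed across 10 RNA sequencing libraries. Members were the rows of the expression table whose symbol is Psm, a letter from a to g and a number, with a mean of at least 1 FPKM over the 10 libraries. FPKM divides the fragments of a gene by the length of its transcript and by the size of the library, so levels can be set side by side between genes. The symbol matched 48 of the 17457 rows, and 46 of them were members. Psmb11, the core subunit known from thymic epithelium, was left out at a mean of 0.85 FPKM. Psmc3ip, whose symbol carries further letters and whose product acts in meiotic recombination, was kept apart.

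The 26S proteasome degrades proteins that carry ubiquitin chains. Its 20S core is a barrel of 4 stacked rings, the outer pair built from alpha subunits (Psma genes) and the inner pair from beta subunits (Psmb genes), and the beta subunits encoded by Psmb5, Psmb6 and Psmb7 cut the substrate. The 19S particle at the ends of the barrel holds ATPases that unfold the substrate (Psmc genes) and non-ATPase subunits. Most Psmd genes encode these non-ATPase subunits, some of which bind or remove ubiquitin, and Psmd5, Psmd9 and Psmd10 encode chaperones of 19S assembly. In lymphocytes, and in other cells exposed to interferon gamma, the catalytic subunits are exchanged for those of the immunoproteasome, Psmb8 for Psmb5, Psmb9 for Psmb6 and Psmb10 for Psmb7, which alters the peptides offered on MHC class I. Psme1 and Psme2 encode PA28 alpha and beta, a cap that opens the core without ATP.

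The 10 libraries fell into 6 labelled TEST and 4 labelled CONTROL, and all of them came from CD4+ T cells that the labels describe as sorted from mice with terminal tumours and stimulated in culture for 5 h with antibodies to CD3 and CD28, IL-2 and TSLP. TEST 1 and TEST 2 (draining and non-draining lymph node of the same 4 mice) and TEST 3 (non-draining node, 2 mice) were from C57BL/6 K14-TSLP +/tg, TSLPR -/- hosts given PyMT tumours and Ly5.1 CD4+ T cells. TEST 4 was from a C57BL/6 mouse with K14-TSLP +/tg, MMTV-PyMT +/tg and TSLPR +/-. TEST 5 and TEST 6 were from BALB/c mice with K14-TSLP +/tg and MMTV-PyMT +/tg, with Rag1 -/- and transferred CD4+ T cells in TEST 5 and Rag1 +/- in TEST 6. CONTROL 1 (draining node, 4 mice) and CONTROL 2 (1 mouse) were from C57BL/6 TSLPR -/- hosts given PyMT tumours and TSLPRKO CD4+ T cells. CONTROL 3 was the spleen of a C57BL/6 mouse with K14-TSLP +/tg, MMTV-PyMT +/tg and TSLPR -/-, and CONTROL 4 was from a BALB/c Rag1 +/- mouse with no transgene named. The title of CONTROL 4 names no tumour either, although the labels describe terminal tumours. The K14 promoter drives TSLP in skin keratinocytes, the MMTV promoter drives the PyMT oncogene in mammary epithelium, and the TSLPR -/- transfer hosts were irradiated sublethally, so T cells of those hosts may remain. Strain, host, tissue and the number of pooled mice differed within both groups, and the 10 libraries came from 9 mice or pools of mice. Age at harvest was not stated, and Rag1-deficient mice received their T cells at 4 weeks of age.

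CD4+ T cell markers were present throughout, with 8 listed genes summing to 1240 to 2386 FPKM per library. Markers of B cells summed to at most 23.9 FPKM, and myeloid markers to at most 45.8 FPKM, the highest in TEST 4. Crlf2, which encodes the TSLP receptor chain, lay between 0.15 and 0.21 FPKM in the 3 CONTROL libraries labelled TSLPR-deficient, at 3.28 FPKM in CONTROL 4 and between 5.7 and 34.9 FPKM in TEST libraries. The share of FPKM in ribosomal RNA rows was 1.18% for TEST 4 and 10.7% to 26% for the other libraries, and a low share raises the FPKM of all other genes. Depth is unknown, because FPKM values carry no read counts.

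Promoter sequences were read for the genes on which the comparisons below turn, as windows of 250 bases before and 50 bases after the RefSeq start on GRCm38.p6, the build called mm10. Of the 46 members, 39 had such a window. Shown are the immunoproteasome genes Psmb8 and Psmb9, the constitutive genes Psmb5 and Psmb6 that they are paired with, the activator gene Psme1 and the 19S gene Psmd13. Each runs 5′ to 3′ on the strand of its gene. Capitals mark a gamma-activated site (TTCNNNGAA) in Psmb8, the core of an antioxidant response element (TGACNNNGC) in Psmb5 and Psmb6, an IRF element (GAAA, any 2 bases and GAAA) read from the other strand in Psme1 and an ETS element (CCGGAAG) in Psmd13. Psmb9 held none of the interferon elements searched and has no capitals. The windows of Psmb10, Psma1, Psma2 and Psma4 are not shown, and Psmb7 had no window. Psmb10 held neither the IRF element nor the gamma-activated site, and Psma1, Psma2 and Psma4 held no antioxidant core.
Psmb8, chr17:34197945-34198244, + strand: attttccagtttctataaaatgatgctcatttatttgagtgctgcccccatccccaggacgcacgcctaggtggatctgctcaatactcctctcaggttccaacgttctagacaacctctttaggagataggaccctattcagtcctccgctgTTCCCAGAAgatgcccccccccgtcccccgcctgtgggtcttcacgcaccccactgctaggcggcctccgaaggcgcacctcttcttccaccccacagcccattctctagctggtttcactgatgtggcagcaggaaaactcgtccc
Psmb9, chr17:34187281-34187580, - strand: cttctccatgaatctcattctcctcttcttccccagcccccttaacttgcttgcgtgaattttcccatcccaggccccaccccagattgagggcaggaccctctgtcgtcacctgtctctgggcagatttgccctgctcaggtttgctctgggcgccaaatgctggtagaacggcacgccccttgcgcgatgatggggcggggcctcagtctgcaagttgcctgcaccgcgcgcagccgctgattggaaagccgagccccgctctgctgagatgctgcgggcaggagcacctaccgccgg
Psmb5, chr14:54617946-54618245, - strand: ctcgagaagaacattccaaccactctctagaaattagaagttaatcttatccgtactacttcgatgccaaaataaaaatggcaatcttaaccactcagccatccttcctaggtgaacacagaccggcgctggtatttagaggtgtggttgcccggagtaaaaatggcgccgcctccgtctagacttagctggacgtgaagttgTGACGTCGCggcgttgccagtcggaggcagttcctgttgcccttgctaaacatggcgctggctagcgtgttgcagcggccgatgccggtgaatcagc
Psmb6, chr11:70525107-70525406, + strand: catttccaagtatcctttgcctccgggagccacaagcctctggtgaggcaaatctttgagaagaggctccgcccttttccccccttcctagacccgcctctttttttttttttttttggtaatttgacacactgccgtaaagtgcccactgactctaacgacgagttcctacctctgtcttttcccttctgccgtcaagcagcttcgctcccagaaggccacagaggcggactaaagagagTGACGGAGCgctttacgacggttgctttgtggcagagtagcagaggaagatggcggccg
Psme1, chr14:55578244-55578543, + strand: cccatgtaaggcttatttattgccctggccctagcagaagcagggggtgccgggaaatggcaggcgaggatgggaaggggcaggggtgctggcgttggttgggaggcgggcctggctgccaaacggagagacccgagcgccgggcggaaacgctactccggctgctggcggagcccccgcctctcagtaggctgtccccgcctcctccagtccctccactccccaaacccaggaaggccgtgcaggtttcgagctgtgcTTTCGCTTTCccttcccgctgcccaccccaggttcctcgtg
Psmd13, chr7:140882144-140882443, + strand: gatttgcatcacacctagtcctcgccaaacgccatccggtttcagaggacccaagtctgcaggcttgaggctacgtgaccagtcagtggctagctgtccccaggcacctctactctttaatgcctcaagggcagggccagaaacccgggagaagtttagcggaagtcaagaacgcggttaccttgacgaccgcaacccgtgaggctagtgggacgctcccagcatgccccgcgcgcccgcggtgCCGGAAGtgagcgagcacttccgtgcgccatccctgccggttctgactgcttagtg

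Psmb8 and Psmb9 lie in the MHC on chromosome 17, on either side of Tap1, which encodes a subunit of the peptide transporter. The gene bodies of Psmb9 (chr17:34182030-34187330, minus strand) and Tap1 were 225 bases apart, and 969 bases separated Tap1 from Psmb8 (chr17:34198195-34201454, plus strand). The third immunoproteasome gene, Psmb10, lies on chromosome 8 (chr8:105935728-105938392, minus strand). Psme1 and Psme2 lie 5912 bases apart on chromosome 14. The 46 members were spread over 16 chromosomes. In the GENCODE annotation 10 of them overlap another gene of the table. Among these are Psmb9 with Tap1 (apart in RefSeq), Psmb7 with Nek6, Psmd13 with Sirt3 and Psmc3 with Slc39a13. Psma2 with AW209491, Psma4 with AY074887 and Psme1 with Emc9 are among them too. Use of strand was not stated, so reads of such pairs may not be told apart.

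The ETS element was found for 35.9% of the 39 members with a window, against 19.5% of windows of genes tested here and 8.86% of all 32851 windows. Member shares count genes and the other shares count windows, and a gene can have several windows. The IRF element was found for 12.8% of these members (Psmb3, Psmd4, Psmd9, Psme1 and Psmg4), against 3.30% and 3.44%. The antioxidant core was in 15.4% (Psmb5, Psmb6, Psmc6, Psmd9, Psmd12 and Psme4), against 14.5% and 12.4%. The gamma-activated site was in 7.69% (Psmb8, Psmd2 and Psmg1), against 7.00% and 8.30%, and the CCAAT box in 33.3%, against 38.5% and 37.4%. Among the 14 members with an ETS element, 6 were 19S non-ATPase genes, 3 were 19S ATPase genes and 1 was of the 20S core. Both strands were searched, and a match describes letters only.

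Proteasome genes were abundant transcripts of these cells. The median of the members' mean levels was 47.8 FPKM, against 10.0 FPKM over the 10743 genes tested, and 22 of the 46 members were among the 10% of those genes with the highest means. The summed level of the members was lowest in the spleen library CONTROL 3, at 2337 FPKM, and highest in TEST 4, at 4225 FPKM. As a share of all FPKM outside ribosomal RNA the members took 0.675% in CONTROL 3 and 1.02% in TEST 5, with TEST 4 at 0.798%. At this higher level members varied less, with a median coefficient of variation of 27.7% over the 10 libraries against 41.5% for all genes tested. Members were not compared with other genes of like level.

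**Figure D1:**
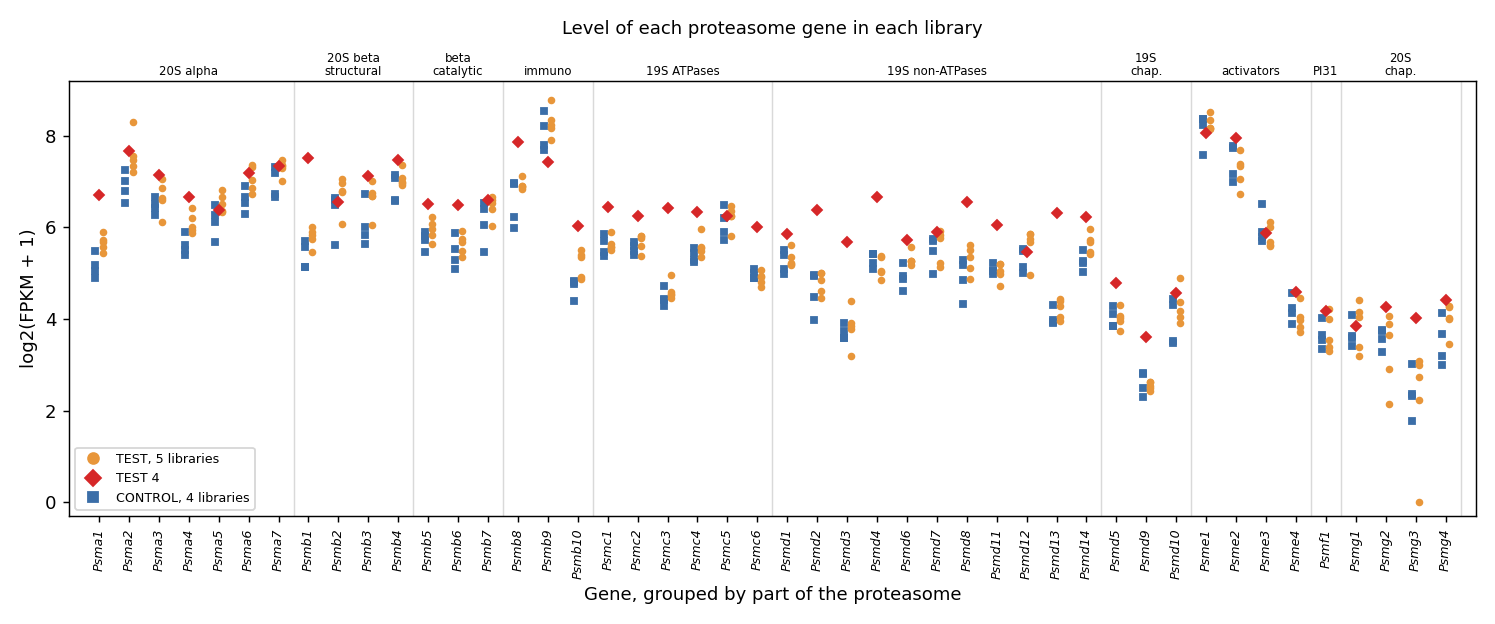
Level of each of the 46 proteasome genes in each library, as log2(FPKM + 1), with genes grouped by the part of the proteasome they encode. Squares are the 4 CONTROL libraries, circles 5 TEST libraries and diamonds TEST 4, which was the highest library for 31 genes and the lowest for Psmb9.

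Psme1 had the highest mean level of all members. It read 329, 330, 191 and 302 FPKM in CONTROL 1 to CONTROL 4 and 283, 323, 367, 267, 288 and 285 FPKM in TEST 1 to TEST 6. Only the spleen library stood apart, on the low side, and the groups overlapped. Its coefficient of variation of 16.0% was the smallest among members. Its partner Psme2 ranged more widely, with 142, 211, 126 and 218 FPKM in CONTROL and 167, 132, 206, 245, 161 and 105 FPKM in TEST, so that both the highest library (TEST 4) and the lowest (TEST 6) were TEST libraries. The least abundant member was Psmd9, a chaperone for assembly of the 19S base, at 3.90, 4.64, 5.96 and 6.09 FPKM in CONTROL libraries and 4.77, 5.17, 4.36, 11.1, 5.19 and 4.61 FPKM in TEST libraries. TEST 4 was the high library, and the other 5 TEST values lay within the range of CONTROL.

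Levels differed between the components of the particle. The 14 constitutive core genes had mean levels from 49.3 FPKM (Psma1) to 166 FPKM (Psma2), a span of 3.37-fold, although the assembled barrel holds their products in equal number. The 6 ATPase genes of the 19S particle ran from 28.8 FPKM (Psmc3) to 72.1 FPKM (Psmc5), and the 11 non-ATPase genes from 16.7 FPKM (Psmd3) to 47.6 FPKM (Psmd7). The chaperones that assemble the core, encoded by Psmg1 to Psmg4, had means of 5.65 to 14.03 FPKM, with Psmg3 listed at 0 in TEST 6. Psmf1, which encodes the inhibitor PI31, averaged 12.5 FPKM. The median core gene lay above the median 19S gene in every library, by 1.44-fold in CONTROL 2 to 3.18-fold in TEST 6.

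The immunoproteasome genes differed widely from each other. Psmb9, which encodes the beta1i subunit, read 296, 221, 205 and 371 FPKM in CONTROL 1 to CONTROL 4 and 240, 299, 287, 172, 325 and 441 FPKM in TEST 1 to TEST 6. TEST 4 was its lowest library and TEST 6 its highest. Psmb8, which encodes beta5i, read 123, 73.5, 62.3 and 123 FPKM in CONTROL and 113, 118, 139, 232, 118 and 118 FPKM in TEST, so TEST 4 was here the highest library. Psmb10, which encodes beta2i, read 26.2, 27.01, 19.9 and 27.5 FPKM in CONTROL and 28.2, 40.2, 40.8, 64.1, 44.7 and 29.0 FPKM in TEST. Every TEST value of Psmb10 lay above every CONTROL value, by a margin of 0.68 FPKM between the nearest pair. The mean of Psmb9 was 8.22 times that of Psmb10.

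Their constitutive counterparts were more even. Psmb5, which encodes the chymotrypsin-like beta5 subunit, read 55.3, 58.2, 43.2 and 52.1 FPKM in CONTROL and 56.1, 66.8, 73.8, 90.3, 48.4 and 61.6 FPKM in TEST. Psmb6, for the caspase-like beta1, read 57.7, 32.9, 45.3 and 37.8 FPKM in CONTROL and 50.04, 59.9, 53.0, 89.2, 40.0 and 44.1 FPKM in TEST. Psmb7, for the trypsin-like beta2, read 91.6, 82.9, 42.9 and 65.5 FPKM in CONTROL and 95.2, 91.1, 100.3, 95.7, 83.8 and 64.2 FPKM in TEST. TEST and CONTROL overlapped for all 3 genes, and TEST 4 was the highest library for Psmb5 and Psmb6.

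The ratio within each pair asks how far the transcripts of the exchange partners lean to the immunoproteasome, and it does not depend on how a library was scaled. Psmb9 exceeded Psmb6 and Psmb8 exceeded Psmb5 in all 10 libraries, whereas Psmb10 was below Psmb7 in all 10. The log2 ratio of Psmb9 to Psmb6 had a median of 2.40, or 5.27-fold, and ranged from 0.94 in TEST 4 to 3.32 in TEST 6. That of Psmb8 to Psmb5 had a median of 0.97, or 1.96-fold, and ranged from 0.34 in CONTROL 2 to 1.36 in TEST 4. That of Psmb10 to Psmb7 had a median of -1.22, and ranged from -1.80 in CONTROL 1 to -0.58 in TEST 4. TEST 4 thus had the highest ratio for Psmb8 and Psmb10 and the lowest for Psmb9.

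**Figure D2:**
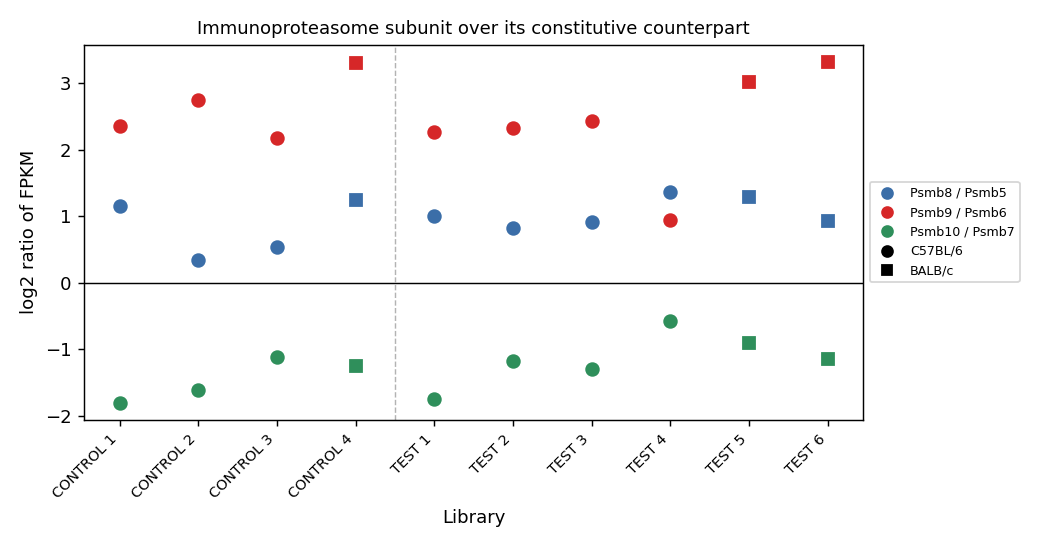
Log2 ratio of FPKM of each immunoproteasome gene to its constitutive counterpart in each library, with circles for C57BL/6 and squares for BALB/c and a dashed line between CONTROL and TEST. The red points of Psmb9 over Psmb6 lie between 0.94 and 3.32, and the 3 BALB/c libraries hold the 3 highest of them.

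Between TEST and CONTROL no ratio passed the test. The log2 ratio of Psmb8 to Psmb5 was 1.05 ± 0.22 in TEST (SD, n = 6) and 0.82 ± 0.45 in CONTROL (SD, n = 4), by an exact two-sided permutation test p = 0.29. The ratio of Psmb9 to Psmb6 was 2.39 ± 0.82 and 2.647 ± 0.49 (exact permutation p = 0.63), and without TEST 4 the difference of -0.26 turned to 0.03. The ratio of Psmb10 to Psmb7 was -1.14 ± 0.39 and -1.45 ± 0.32 (exact permutation p = 0.24). The smallest p that the 210 splits allow is 0.0048, and the adjusted values over the 6 ratio tests of both comparisons were 0.44, 0.63 and 0.44.

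Between strains the widest difference was in the pair of Psmb9 and Psmb6. Its log2 ratio was 3.22 ± 0.17 in BALB/c (SD, n = 3) and 2.18 ± 0.57 in C57BL/6 (SD, n = 7), a difference of 1.04, and the groups did not overlap. The exact two-sided permutation p of 0.0083 was the smallest that the 120 splits allow, and its adjusted value of 0.05 over the 6 tests did not fall below the threshold of 0.05. Leaving out each library in turn gave differences from 0.83, without TEST 4, to 1.13, and adjusted p from 0.071 to 0.44. The ratios of Psmb8 to Psmb5 and of Psmb10 to Psmb7 were 0.28 and 0.23 higher in BALB/c (exact permutation p = 0.25 and 0.37). All BALB/c libraries came from mice with a Rag1 mutant allele, and no C57BL/6 library did. All C57BL/6 libraries came from mice with a TSLPR mutant allele, and none was named for the BALB/c mice. Strain, Rag1 genotype and TSLPR genotype of the mouse therefore cannot be told apart. Hosts of transferred T cells were also more frequent among the C57BL/6 libraries.

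TEST and CONTROL were then compared gene by gene with limma on log2(FPKM + 1) over 10743 genes, which asks whether T cells of the TEST group carry more or less proteasome transcript. None of the 46 members reached an adjusted p (Benjamini-Hochberg) under 0.05, where 0.0931% of all genes tested were called (10 genes). That fit counted TEST 1 and TEST 2, which share mice, as separate libraries. With TEST 1 and TEST 2 averaged, 0 of 10636 genes were called. At an unadjusted p under 0.05, 8 members were higher in TEST and 0 lower, against 6.42% and 7.3% of all genes. The 8 were Psma1, Psma2, Psma4, Psma6, Psmb3, Psmb10, Psmd6 and Psmd14, 17.4% of the members, and the smallest adjusted p was 0.26. Members share libraries and vary together, so that share is a description. In bulk samples, fewer cells of a type and less RNA per cell cannot be told apart.

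The fitted differences leaned to one side. Of the 46 members, 42 had a positive difference (TEST minus CONTROL), against 50.3% of all genes tested, and the median was 0.32 on the log2 scale against 0.003 over all genes. All 14 core genes were positive, with a median of 0.37 and a range from 0.27 to 0.69. All 17 ATPase and non-ATPase genes of the 19S particle were positive too, with a median of 0.31 and a range from 0.10 to 0.59. The 4 with a negative difference were Psme3, Psme4, Psmg2 and Psme2. TEST exceeded CONTROL in every library pair for Psmb10 alone, 2.17% of members against 1.48% of all genes.

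Scale and TEST 4 bore on the lean. With values scaled to TPM, which moved the median of all genes tested to -0.16, 31 of 46 members were positive and 3 passed an unadjusted p under 0.05. Relative to the median of all genes, the median of the members was 0.32 higher both in FPKM and in TPM. Without TEST 4 the median of the 14 core genes was 0.39 and all 14 were positive. The median of the 17 genes of the 19S particle was then 0.15, with 14 positive, and that of all genes tested was -0.09. No member was called under these settings.

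**Figure D3:**
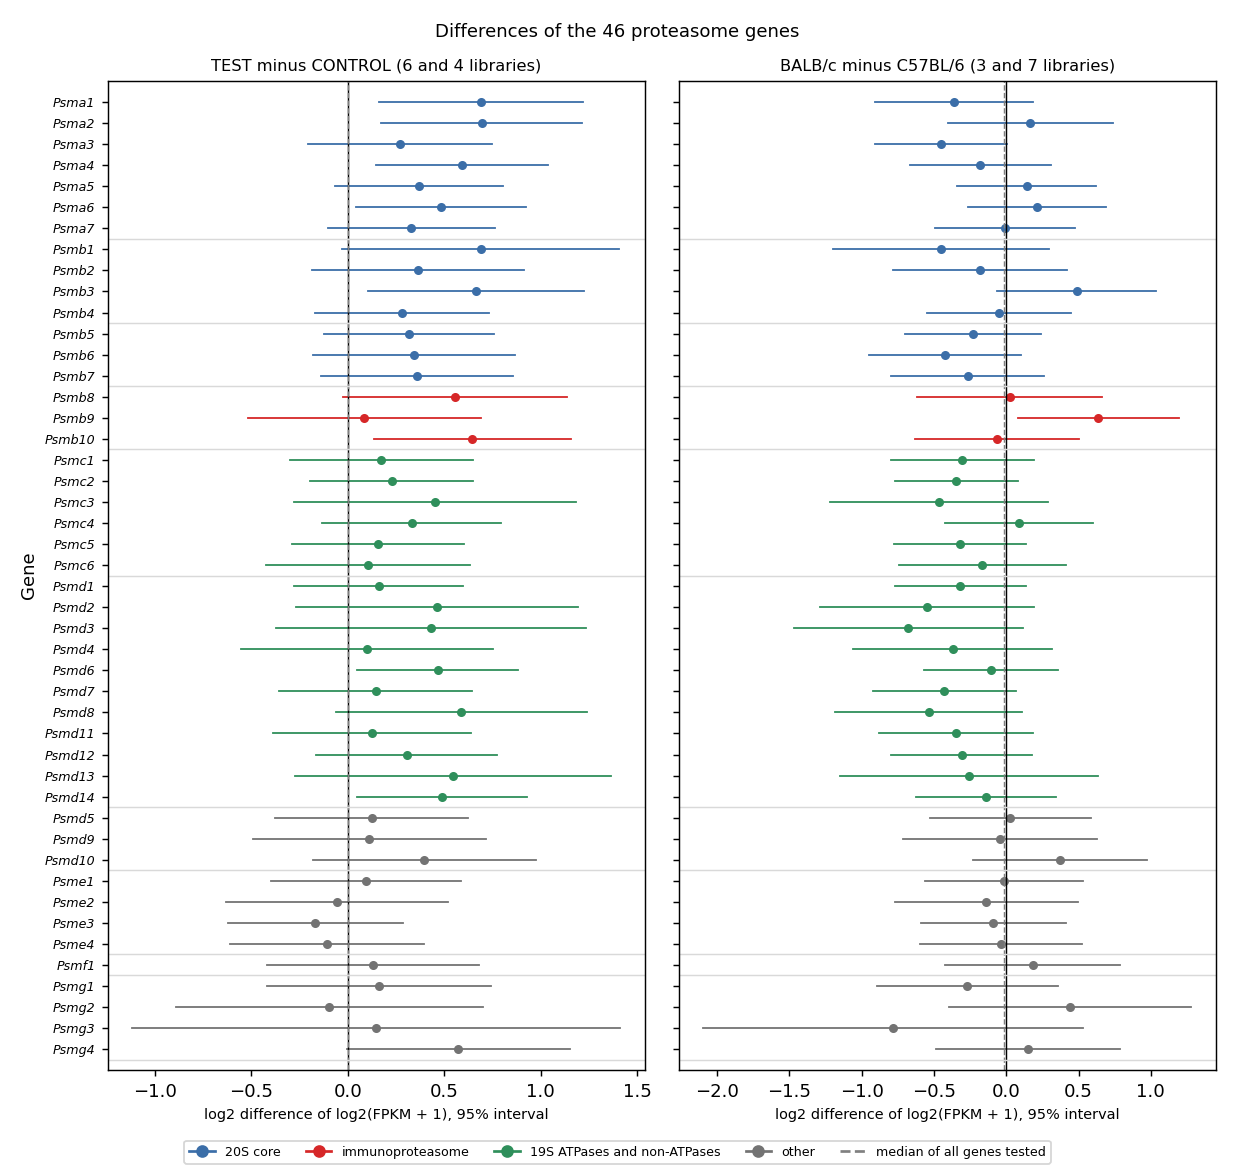
Log2 difference of each proteasome gene with its 95% interval, TEST minus CONTROL on the left and BALB/c minus C57BL/6 on the right, with the median of all genes tested as a dashed line. On the left all 14 core genes (blue) and all 17 genes of the 19S particle (green) lie above 0, and no adjusted p fell below 0.26.

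The 3 members with the smallest p were alpha ring genes. Psma2, for alpha2, read 151, 90.8, 128 and 110 FPKM in CONTROL 1 to CONTROL 4 and 146, 177, 188, 201, 312 and 160 FPKM in TEST 1 to TEST 6. Only TEST 1 fell inside the range of CONTROL. The log2 difference was 0.69 with a standard error of 0.24 (limma, adjusted p = 0.26). Psma4, for alpha3, read 58.2, 44.4, 47.7 and 40.9 FPKM in CONTROL and 60.5, 57.9, 85.2, 100.5, 72.8 and 63.5 FPKM in TEST. TEST 2 alone lay below the highest CONTROL value, and the difference was 0.59 with a standard error of 0.21 (limma, adjusted p = 0.26). Psma1, for alpha6, read 43.8, 35.2, 31.9 and 28.7 FPKM in CONTROL and 50.4, 46.4, 58.7, 103, 52.2 and 42.7 FPKM in TEST. Here TEST 6 lay just below CONTROL 1 and TEST 4 far above all others, and the difference was 0.69 with a standard error of 0.25 (limma, adjusted p = 0.27).

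Psmb10 followed, with a log2 difference of 0.65, a standard error of 0.24 and a 95% interval from 0.13 to 1.16 (limma, adjusted p = 0.28). For Psmb8 the difference was 0.55 with an interval from -0.03 to 1.13, and for Psmb9 it was 0.09 with an interval from -0.52 to 0.69. The direction for Psmb9 turned when values were scaled to TPM. The constitutive genes Psmb5, Psmb6 and Psmb7 had differences of 0.32, 0.34 and 0.36, close to each other, with intervals that all included 0.

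On the side lower in TEST the differences were small. Psme3, which encodes the nuclear activator PA28 gamma, read 58.5, 90.7, 51.4 and 54.6 FPKM in CONTROL and 50.1, 47.1, 68.2, 58.0, 47.9 and 63.7 FPKM in TEST. CONTROL 2 was the high library, and the log2 difference of -0.17 turned to 0.01 without it. Psme4, for the activator PA200, read 18.0, 22.6, 16.4 and 13.8 FPKM in CONTROL and 15.4, 13.1, 12.1, 23.2, 14.8 and 20.8 FPKM in TEST, a difference of -0.11, or 0.01 without CONTROL 2. Psmg2, for a chaperone of alpha ring assembly, read 8.68, 12.3, 10.8 and 12.6 FPKM in CONTROL and 3.41, 6.55, 13.9, 18.1, 11.6 and 15.7 FPKM in TEST. Its lowest libraries were TEST 1 and TEST 2, which share mice, and the difference of -0.09 turned to 0.17 without TEST 1. The differences of Psme1 and Psme2 were 0.09 and -0.05, with intervals from -0.40 to 0.58 and from -0.63 to 0.52.

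TEST 4 stood apart for the proteasome as it did for the transcriptome. It was the highest library for 31 of 46 members (67.4%), against 38.5% of all genes tested. The median member was 1.57 times the median of the other 9 libraries, against 1.41 times for all genes. Within the particle the 19S non-ATPase genes were higher in TEST 4 by a median of 2.04 times, the ATPase genes by 1.83 times and the alpha ring genes by 1.33 times. Psmd13, for a lid subunit of the 19S particle, was at 78.3 FPKM in TEST 4 and between 14.01 and 20.8 FPKM in the other 9 libraries, or 5.07 times their median. Psmc3, for an ATPase of the base, was at 84.5 FPKM against 18.5 to 30.2 FPKM, and Psmb1, for the beta6 subunit, at 182 FPKM against 34.0 to 63.5 FPKM. Psmd3 and Psmd2, for further subunits of the 19S particle, were 3.88 and 2.98 times the median of the others. By contrast Psma5, Psma7, Psmb2, Psmc5 and Psmd12 were between 0.94 and 1.03 times it.

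Scaling the libraries by the median ratio took the excess of all genes in TEST 4 to 1.01 times, and then the core genes stood at 0.98 times and the 19S genes at 1.31 times the median of the other libraries. On that scale the ratio was 3.72 for Psmd13, 2.88 for Psmc3, 0.62 for Psme1 and 0.41 for Psmb9. The scaling divides each library by a factor of its own, and the order of these 4 genes stayed that of their unscaled ratios. Both sets of ratios come from the same values, so the scaled order is not a separate result. Tap2 showed a like excess, at 116 FPKM in TEST 4 and 5.91 to 17.3 FPKM elsewhere, and so did Irf1, at 422 FPKM against 67.0 to 126 FPKM. TEST 4 also had the least ribosomal RNA and the highest myeloid marker sum, and the part of these in the result was not tested. TEST 4 was a single mouse, so no test was made.

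**Figure D4:**
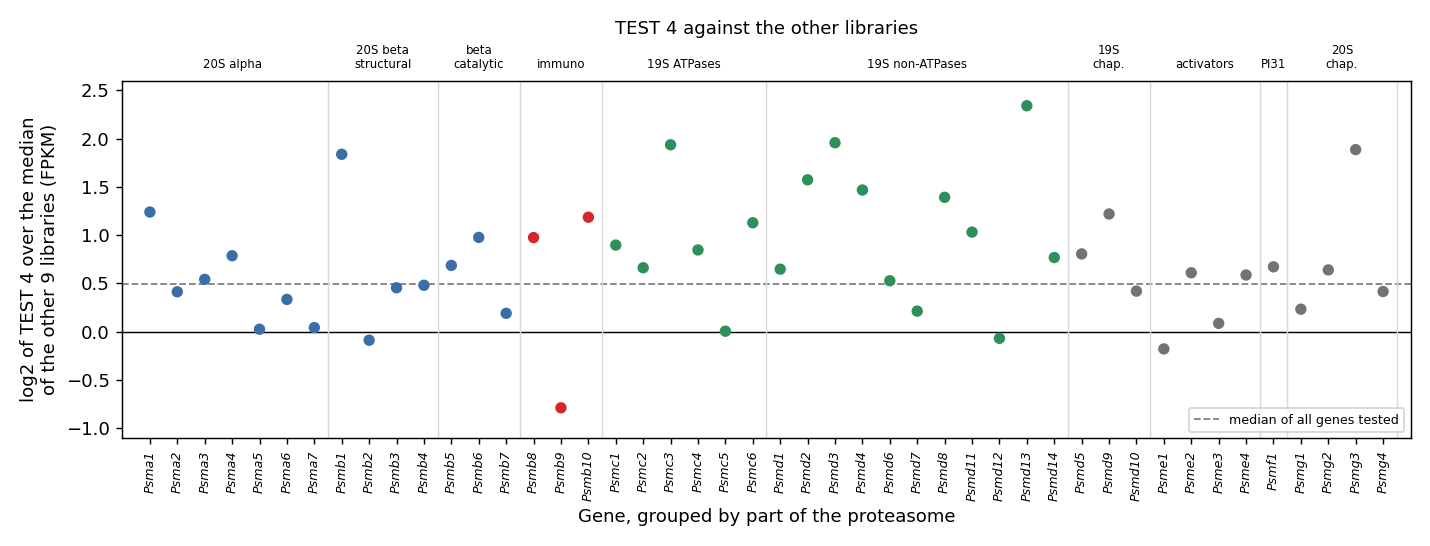
Level of each proteasome gene in TEST 4 over its median in the other 9 libraries, on a log2 scale, with blue for the core, red for the immunoproteasome, green for the 19S ATPases and non-ATPases and grey for the rest. The dashed line is the median over all genes tested (1.41 times), and Psmd13 (5.07 times) and Psmb9 (0.579 times) are the highest and the lowest points.

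Within the core, within the 19S particle and between these parts, median correlations across libraries lay above that over all genes tested. Over pairs of the 14 core genes the median Pearson correlation of log2(FPKM + 1) was 0.56 over 10 libraries and 0.52 without TEST 4. Over pairs of the 17 genes of the 19S particle it was 0.67 over 10 libraries and 0.29 without TEST 4, but 0.53 and 0.54 once libraries were scaled by the median ratio. The core genes stood at 0.58 and 0.69 on that scale. Between core genes and 19S genes the median was 0.48 over 10 libraries and 0.16 without TEST 4, or 0.41 and 0.49 scaled. Over all genes tested it was 0.12 and 0.07 in FPKM and 0.00 on the scaled values, with and without TEST 4. For the 3 immunoproteasome genes it was 0.00 with TEST 4 and 0.67 without it (0.14 and 0.76 scaled), and Psmb9 was at its lowest in that library. Psmb8 and Psmb10 were correlated at 0.83 over 10 libraries and 0.67 over 9, and Psmb8 and Psmb9 at 0.00 and 0.70. Psme1 and Psme2 were correlated at 0.31 and 0.47. These points share libraries and their scaling, and TEST 1 and TEST 2 share mice. The reference over all genes tested was not matched to the members for level.

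The draining and non-draining nodes of the same 4 mice, TEST 1 and TEST 2, gave similar values. The log2 ratio of TEST 2 to TEST 1 lay within 0.5 of 0 for 40 of 46 members (87.0%), against 70.7% of all genes tested, whose levels were mostly lower. The widest ratios were -1.11 for Psmg1 and 0.94 for Psmg2, whose products form a heterodimer in core assembly. With 1 library each, no test was made.

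The strain comparison, with group in the model, asks whether the BALB/c and C57BL/6 libraries differ in proteasome transcript. None of the 46 members was called, where 0.596% of all genes tested were called (64 genes). At an unadjusted p under 0.05 there was 1 member, 2.17% of them, against 9.07% of all genes. It was Psmb9, with a log2 difference (BALB/c minus C57BL/6) of 0.64, a 95% interval from 0.08 to 1.19 and a limma adjusted p of 0.48. Its values of 371, 325 and 441 FPKM in BALB/c all lay above those of C57BL/6, which reached 299 FPKM. BALB/c lay wholly above C57BL/6 for 1.28% of all genes tested and for 2.17% of members, Psmb9 alone. Psmb8, its neighbour beyond Tap1, differed by 0.02 and Psmb10 by -0.06. The reads were aligned to mm10, which is a C57BL/6 genome. H2-K1, an MHC class I gene that is polymorphic between these strains, read 417 to 604 FPKM in BALB/c and 1456 to 2479 FPKM in C57BL/6. It was thus lower in BALB/c, whereas Psmb9 was higher. The strains overlapped for H2-D1, another MHC class I gene, at 858 to 1173 FPKM in BALB/c and 606 to 1902 FPKM in C57BL/6. Tap1 differed by -0.04 and Tapbp, another gene of class I processing, by 0.13. The part of allele differences in the value of Psmb9 was not tested.

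The other members with the smallest p in this comparison lay on both sides. Psmb3, for the beta3 subunit, read 106, 107 and 127 FPKM in BALB/c (CONTROL 4, TEST 5 and TEST 6) and 48.4 to 139 FPKM in C57BL/6, with a fitted difference of 0.49 (limma, adjusted p = 0.61). Only TEST 4 kept the strains from separating. Psmd10, which encodes the 19S chaperone gankyrin, read 18.6, 16.99 and 28.6 FPKM in BALB/c and 10.1 to 22.7 FPKM in C57BL/6. Psma3, for alpha7, read 76.4, 67.9 and 96.2 FPKM in BALB/c and 84.3 to 140 FPKM in C57BL/6, a difference of -0.45 (limma, adjusted p = 0.55). TEST 6 alone overlapped with C57BL/6. For Psmd7 the values were 44.0, 36.1 and 34.3 FPKM against 30.7 to 59.2 FPKM, and for Psmd3 10.99, 12.8 and 8.10 FPKM against 11.05 to 49.9 FPKM. Both encode lid subunits of the 19S particle. The median over the 17 genes of that particle was -0.32, with 1 positive, against -0.01 over all genes tested. Without TEST 4, a C57BL/6 library, it was -0.20 with 3 positive, against 0.07 over all genes. The 14 core genes leaned the same way, with a median of -0.18 and 4 positive, or -0.12 and 5 positive without TEST 4.

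Lists of partner genes were read from the same fit. Of 15 tested partners of the particle 0 were called, and 10 were positive with a median of 0.11. Pomp, which encodes the maturation factor of the core, read 98.8, 103, 86.5 and 123 FPKM in CONTROL and 135, 148, 174, 135, 140 and 126 FPKM in TEST. Every TEST value lay above every CONTROL value, as for 1.48% of all genes tested. The log2 difference of Pomp was 0.48 with a standard error of 0.19 (limma, adjusted p = 0.29). Shfm1, for the smallest lid subunit, read 38.3, 14.1, 27.8 and 40.0 FPKM in CONTROL and 44.4, 39.9, 40.1, 186, 52.8 and 61.2 FPKM in TEST, with TEST 4 high (limma, difference 1.06, adjusted p = 0.29). Adrm1, for a ubiquitin receptor of the 19S particle, was 0.53 higher (limma, adjusted p = 0.40).

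Of 10 genes of the NFE2L1 pathway, through which cells raise proteasome transcription when degradation is blocked, 0 were called and 4 were positive, with a median of -0.07. Nfe2l1 itself read 23.5, 23.8, 20.6 and 19.5 FPKM in CONTROL and 17.6, 17.7, 19.3, 26.2, 18.0 and 25.7 FPKM in TEST, a difference of -0.09. The smallest p values were those of its partners Mafg, at 0.37, and Maff, at -0.48, and of its relative Nfe2l2, at -0.27 (limma, adjusted p of 0.58 to 0.64). Of 6 genes of ubiquitin and its activating enzymes 0 were called and 4 were positive. Rps27a, which encodes ubiquitin fused to a ribosomal protein, and Ubb, which encodes a ubiquitin chain, differed by 0.84 and 0.42, and both were highest in TEST 4.

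Of 14 genes of MHC class I processing and its regulators 0 were called, and 11 were positive with a median of 0.06. Tapbp, for tapasin, differed by 0.49 and H2-D1 by 0.45 (limma, adjusted p of 0.45 and 0.56). Ifng, which encodes interferon gamma, was at 167 FPKM in TEST 5 and at 4.62 to 21.6 FPKM in the other 9 libraries. In TEST 5 Psmb10 was at 44.7 FPKM, below TEST 4 only, and Psmb9 at 325 FPKM, below CONTROL 4 and TEST 6 only. Psmb8 was at 118 FPKM, below TEST 3, TEST 4, CONTROL 1 and CONTROL 4. The part of Ifng in these values was not tested. Tap1 was at 226 FPKM in TEST 4 and at 57.6 to 88.3 FPKM elsewhere, while its neighbour Psmb9 was at its lowest there.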

How the data were processed

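RNA sequencing of CD4+ T cells in 10 libraries was analysed. The deposited values are FPKM per gene, which the authors computed from reads sequenced on an Illumina HiSeq instrument and aligned to mm10 with Bowtie. BWA and RSEM appear in the submitters' processing notes with no version, and use of strand: not given in the sources used here. The study's text calls the cells freshly sorted, whereas the labels describe stimulation for 5 h, and the labels were followed. Read counts were not used here, so depth is unknown, and p-values measure the spread between libraries of mixed origin.

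The members and gene lists were chosen with earlier results of these data known. The 10743 genes that reached 1 FPKM in 4 libraries entered a linear model of log2(FPKM + 1) in limma (version 3.58.1, R 4.3.3), with a mean-dependent prior and without robust estimation, two-sided, with Benjamini-Hochberg adjustment over all of them. A fold on this scale understates changes of low genes. The first model held group (6 TEST, 4 CONTROL), and the second group and strain (3 BALB/c, 7 C57BL/6). Fits with fewer libraries required as many as the smaller group, up to 4. Ratios were tested by exact permutation of libraries in Python 3.11.15. The main runs of both tests counted TEST 1 and TEST 2 as separate libraries, although they share mice. Both tests were tested on simulated data. Values in every library are given for Psmb5 to Psmb10, Psme1, Psme2, the most and least abundant members and the 3 members with the smallest p in each direction of both comparisons (as a range for the 7 C57BL/6 libraries), and the partner lists are described by up to 3 genes each. Some genes of these lists are counted but not reported here by name. Other genes named for TEST 4, TEST 5 or strain were picked with their values in view. As alternatives, other pseudocounts and filters, TPM, scaling by median ratio or quantiles, weights for libraries, the strain covariate, C57BL/6 alone, the mean of TEST 1 and TEST 2 and the loss of each library were tried. Fits without ribosomal RNA rows, and without TEST 4 with TEST 1 and TEST 2 averaged or with median-ratio scaling, were added after seeing the data. Coordinates, windows and names were matched by gene ID for 46 of 46 members in RefSeq (GRCm38.p6), and overlaps were taken from GENCODE.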

Additional observations from a re-analysis of the deposited data

Results flagged for a closer look

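Of 46 sets of values screened (23 measures in TEST and in CONTROL), 5 had a library far from the rest of its group, where chance gives about 1 in 20. In TEST 4, Psma1 stood at 6.71 on the log2(FPKM + 1) scale against 5.45 to 5.90 in the other TEST libraries, Psmb8 at 7.86 against 6.83 to 7.13, and Psmd9 at 3.60 against 2.42 to 2.63. In the spleen library CONTROL 3, Psmb10 stood at 4.38 against 4.77 to 4.83 in the other CONTROL libraries, and Psme1 at 7.58 against 8.24 to 8.37. Without CONTROL 3 the differences of Psmb10 and Psme1 between TEST and CONTROL were 0.54 and -0.09. TEST 4 was also the library with the least ribosomal RNA, and CONTROL 3 the only one from spleen. Their part in these values was not tested.

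The difference between TEST and CONTROL was compared between strains with an interaction term. Its smallest adjusted p over the 46 members was 1.00 (limma), and 1 member, Psmg3, had an unadjusted p under 0.05, with a value of 0 in TEST 6.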

How the results depend on the processing

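The count of members called was 0 in both comparisons under every alternative run, with the smallest adjusted p between 0.088 (library weights) and 0.59 (leaving out a library) for TEST against CONTROL and between 0.25 and 0.80 for strain (limma). The median differences of the 14 core genes and of the 17 genes of the 19S particle kept their sign under every alternative and moved by less than the spread between libraries. Those of the core ranged from 0.21, in TPM, to 0.51, without TEST 4 and with median-ratio scaling, for TEST against CONTROL and those of the 19S genes from 0.12, without TEST 4 and with TEST 1 and TEST 2 averaged, to 0.37. The number of members at an unadjusted p under 0.05 in that comparison was 8, and it was 3 in TPM, 5 in C57BL/6 alone or without ribosomal RNA rows, and 12 with median-ratio scaling. Leaving out a library gave 4 (without CONTROL 3) or 5 (without CONTROL 2) to 10. For strain it was 1, and it was 1 to 4 under the alternatives, 4 without TEST 4 and with median-ratio scaling, 3 among others without TEST 1, TEST 5 or CONTROL 2 and 2 without TEST 4 or CONTROL 4.

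Among named members, only small differences changed sign, and none of these was called. For TEST against CONTROL, TPM gave -0.075 for Psmb9 and -0.067 for Psme1, quantile scaling -0.11 and -0.15, and the fit without ribosomal RNA rows -0.065 and -0.057. Psme2 was 0.23 in C57BL/6 alone, and Psmg2 was 0.11 with TEST 1 and TEST 2 averaged. Leaving out each library gave -0.041 to 0.25 for Psmb9, -0.091 to 0.17 for Psme1, -0.20 to 0.071 for Psme2, -0.26 to 0.013 for Psme3, -0.21 to 0.012 for Psme4 and -0.25 to 0.17 for Psmg2. The difference in the log2 ratio of Psmb9 to Psmb6 ran from -0.45 to 0.026, positive only without TEST 4. For BALB/c against C57BL/6, Psmb10 was 0.14 with library weights and 0.0084 without ribosomal RNA rows, and -0.20 to 0.14 on leaving out a library. Psmb8 was -0.020 with TEST 1 and TEST 2 averaged and -0.29 to 0.19 on leaving out a library. The cause was not tested. No paired analysis was possible because replicate numbers only name the libraries and pair none of them across groups.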
